A study of Zea mays with 10 samples.

Results

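The comparison set the leaf small RNA of maize (Zea mays) line 714 against that of line id1, window by window over all 10 chromosomes, and asked where both lines depart together from B73 and where they part. It used 2 of the 10 libraries of the series, the 714 leaf library with 9938924 reads and the id1 leaf library with 10017497, and the B73 leaf library with 18396214 reads as the common baseline. The genotypes are P1-ww714 in 714, P1-wwid1 in id1, and B73 is the inbred whose sequence serves as the maize reference. All came from seedlings 14 days old, grown with 15 h light a day, and the leaf libraries carry seedling as their tissue label. The series as a whole concerns dosage effects of copy number alterations. Each line had 1 library per tissue, and the labels do not say how many plants went into one, so every value below compares libraries, has no replicate check and carries counting error only.

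Libraries outside the comparison were used as further readouts. They were leaf of 714H (P1-ww714 over B73), id4 (P1-wwid4) and 9d9a (P1-vv9d9a), and root of id1, B73, id4 and 9d9a. No root library of 714 was analysed here. Of 20584 windows of 100 kb with reads in any library, 20525 had a mean of at least 5 reads in the 714, id1 and B73 leaf libraries and were kept, and 59 were not. Between 714 and id1 the median window differed by 0.17 in log2, and 5.3% of windows differed by at least 2-fold with a counting interval that left out 1. Over all 15 pairs of leaf libraries, this pair included, that share ran from 1.3% to 6.18%. Only 9d9a with 714H, at 5.65%, and id1 with 714H, at 6.18%, had a higher share than 714 with id1. The lowest share was that of 714 and 714H.

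Plant small RNAs are short guides that silence matching transcripts or chromatin. Most of those in maize are small interfering RNAs made from transposable elements, which fill the space between genes and direct DNA methylation to their own copies, and a smaller class, the microRNAs, regulates messenger RNAs. Maize lines differ from each other in which elements lie where. On chromosome 1 lies p1, whose Myb-family product switches on red flavonoid pigment in floral tissues, and many p1 alleles arose when Ac elements moved. Reads were counted on 1 reference genome, so a window's count reflects both the small RNA made there and how well a line's sequence matches the reference, which cannot be told apart in these files. No source used here gives the build of the windows, so no gene, exon or intron is assigned to them, and positions are those of the deposited files. They run from 0 on each chromosome and are read here as the start of a window, which the files do not state.

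Levels are CPM, the read count scaled to a common depth, with library sizes adjusted by TMM factors within each tissue. A window was called where 2 levels differed by at least 2-fold and the exact (Clopper-Pearson) 95% interval of their ratio left out 1. Of the 20525 windows, 614 were called with 714 above id1 (2.99%) and 473 with 714 below id1 (2.3%). Against B73, 714 was called higher in 295 windows (1.44%) and lower in 612 (2.98%), and id1 higher in 151 (0.736%) and lower in 536 (2.61%). No call was made for any of the 3 ratios in 18878 windows (92%). Both ratios to B73 share its single library, and in bulk tissue a different mix of cells and a different amount of small RNA per cell cannot be told apart. Departures from B73 were more often lower than higher in both lines. The balance between the lines depended on the threshold, since a 1.5-fold one called 1099 windows with 714 above id1 and 1291 with 714 below, and among windows with at least 50 reads on average the 2-fold calls were equal, with 405 above and 405 below.

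Among the departures, 149 windows were lower than B73 in both lines without a call between them, and 54 were higher in both. The parted windows were of different kinds. In 299 of the 473 windows with 714 below id1, 714 was called lower than B73 and id1 was not called. In 278 of the 614 with 714 above id1, id1 was called lower than B73 and 714 was not called. In a further 134 of the 614, 714 was called higher than B73 and id1 was not. In 34 windows with 714 above id1 both lines were called on the same side of B73, 32 of them lower. Neither line was called against B73 in 164 windows with 714 above id1 and in 132 with 714 below id1. The 164 rested on few reads, with medians of 35 in 714, 15 in id1 and 43 in B73, against 126, 260.5 and 403 in the 132. In the 134 windows with 714 alone called higher than B73, the medians were 117.5 in 714, 29 in id1 and 58 in B73. The chromosomes differed in kind as well. Shared lower windows lay mostly on chromosome 1, with 121 of the 149. Windows with 714 above id1 made up 8.68% of chromosome 1, 4.24% of chromosome 2 and 3% of chromosome 10, and windows with 714 below id1 made up 9.67% of chromosome 4.

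**Figure D1:**
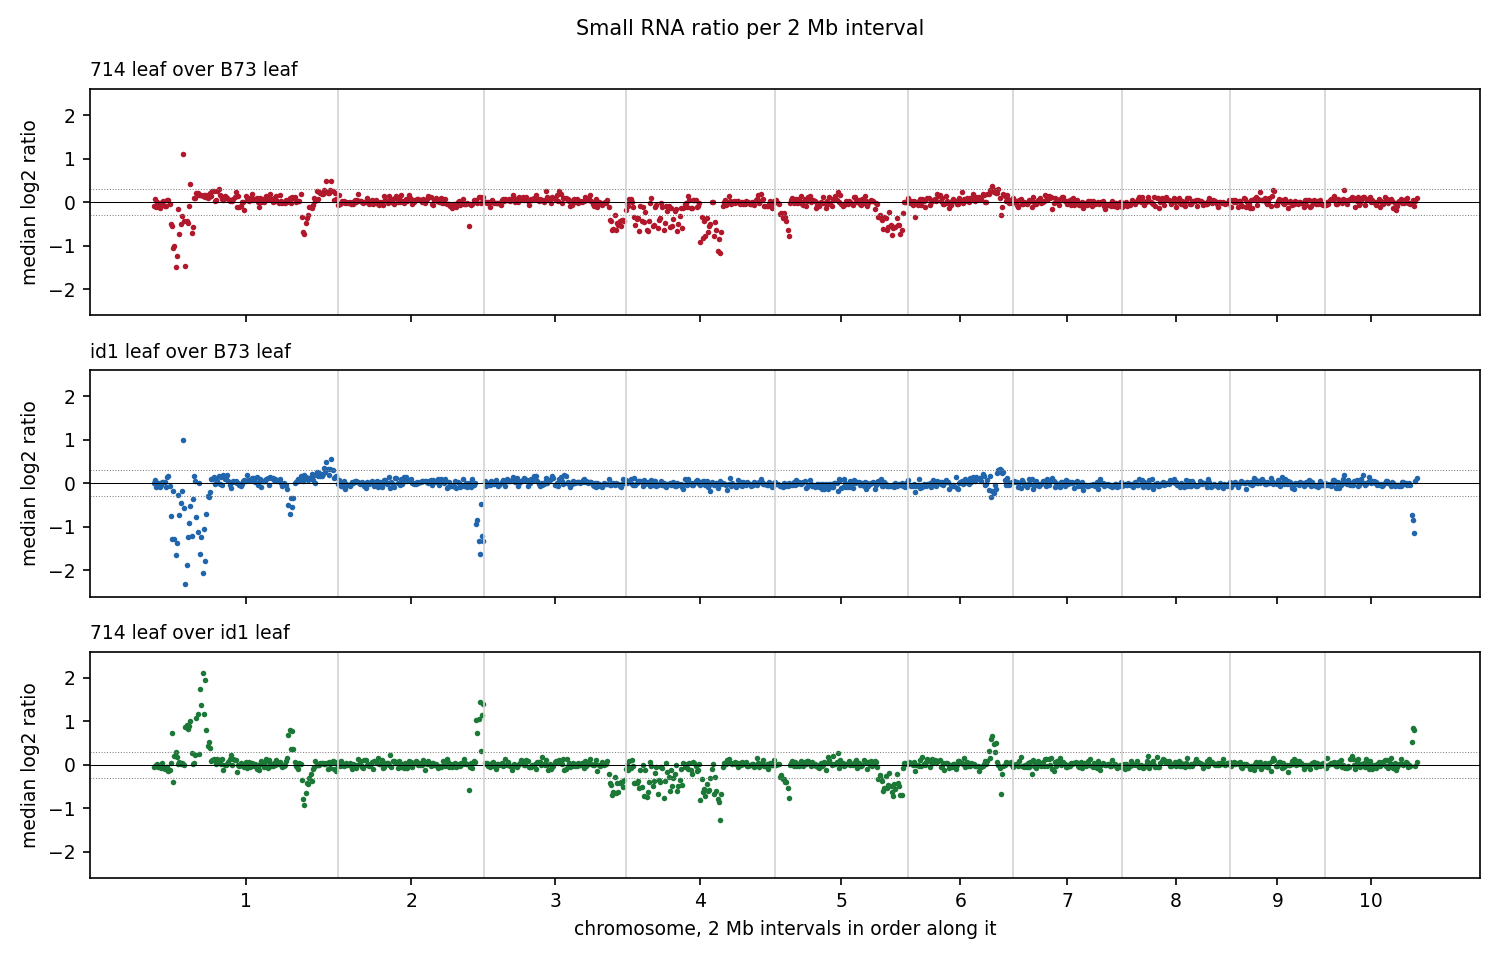
Median log2 ratio of small RNA per 2 Mb interval (y axis) in order along chromosomes 1 to 10 (x axis), for 714 leaf over B73 leaf, id1 leaf over B73 leaf and 714 leaf over id1 leaf, with dotted lines at 0.3 and -0.3. Most intervals lie near 0, 714 lies low over long parts of chromosomes 3, 4 and 5, and id1 over parts of chromosomes 1, 2 and 10.

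Regional values were medians of differences in log2(CPM + 1) over 2 Mb intervals. Of 1034 intervals, 13 had a median of -0.3 or less in both lines, all on chromosome 1. A further 85 were low in 714 alone by this threshold, with 40 on chromosome 4, 23 on chromosome 5, 12 on chromosome 3, 8 on chromosome 1 and 1 each on chromosomes 2 and 6. Another 27 were low in id1 alone, of which chromosome 1 held 16, chromosome 2 held 7, chromosome 10 held 3 and chromosome 6 held 1. In 1 of these, at 60 to 62 Mb of chromosome 1, the lines lay on opposite sides of B73, at 0.41 in 714 and -0.52 in id1. Both lines were higher than B73 by 0.3 or more in 4 intervals, 3 on chromosome 1 and 1 on chromosome 6, while 1 was high in 714 alone and 6 in id1 alone. Neither line reached 0.3 in 895, and 3 had too few windows. In 80 of the 85 intervals low in 714 and in all 27 low in id1, the ratio of 714 over id1 was itself at least 0.3 in size.

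**Figure D2:**
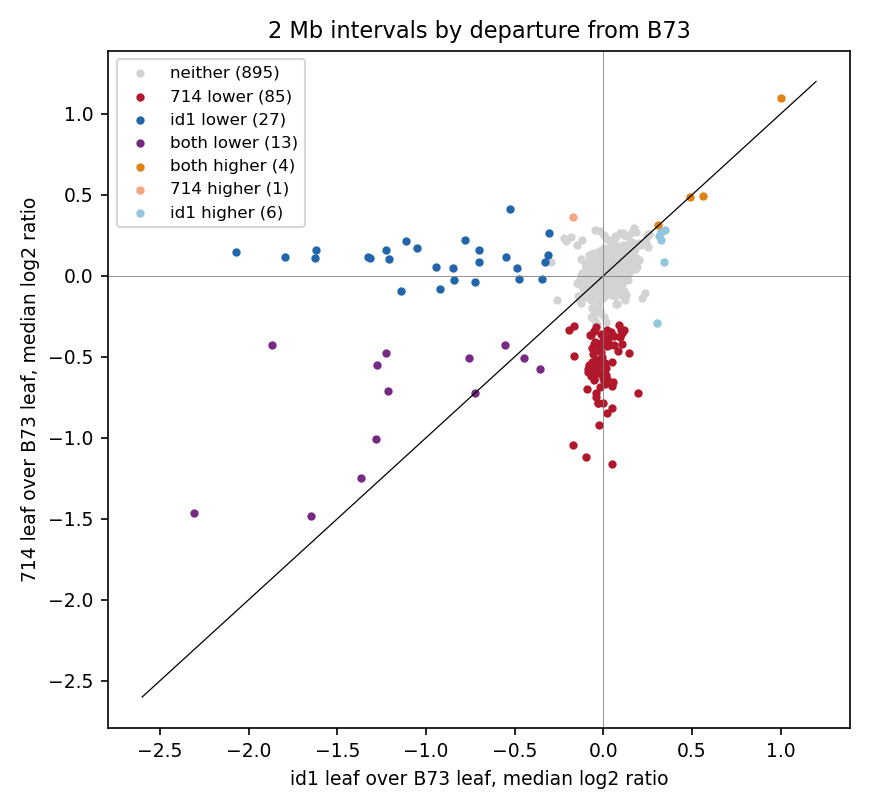
Each point is a 2 Mb interval, with the median log2 ratio of id1 leaf over B73 leaf on the x axis and of 714 leaf over B73 leaf on the y axis; the line marks equal values, and both axes share the B73 library. The 85 intervals low in 714 form a column at id1 values near 0, and the 27 low in id1 form a row at 714 values near 0, with 1 of them higher up, at 0.41 in 714 and -0.52 in id1.

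The shared departure was centred on chromosome 1, around the window that starts 100 kb past 48 Mb, a window named because earlier results of these data pointed to it. It is taken as the position of p1, which was not checked against an annotation. That window held 14141 reads in 714, 12797 in id1 and 450 in B73, which is 1403 CPM in 714 and 1286 CPM in id1, against 24.7 CPM in B73. The ratio to B73 was 56.9 in 714 (95% interval 51.8 to 62.6) and 52.1 in id1 (47.4 to 57.4), and that of 714 over id1 was 1.09 (1.07 to 1.12). The level was 972 CPM in id4, 596 in 714H and 34.2 in 9d9a. It was the most raised of the shared windows in both lines.

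The 3 Mb that begin with this region were raised to a like median in both lines. Over 48 to 51 Mb, the 30 windows had a median log2 ratio to B73 of 1.04 in 714 and 0.99 in id1, and of 0.02 for 714 over id1 (-0.09 to 0.10, a 95% interval of the median from ranks, which describes the scatter of windows and not of plants). Within it 15 windows were shared higher, 2 were shared lower and no window was called between the lines. The window at 50.1 Mb held 920 CPM in 714 and 793 CPM in id1, against 89.4 CPM in B73, and that starting at 48 Mb held 82.2 CPM in 714 and 80.9 CPM in id1, against 11.4 CPM in B73. At 50.1 Mb, id4 with 73.1 CPM and 9d9a with 89.7 CPM stood near B73.

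Before it, from 27 to 48 Mb, both lines lay low. The 209 windows had a median log2 ratio to B73 of -0.89 in 714 and -0.81 in id1, and 67 of them were shared lower. The other lines were low there too, with medians of -0.32 in 714H, -0.52 in id4 and -0.81 in 9d9a. The lines were not the same throughout. The median of 714 over id1 was 0.07 (-0.003 to 0.15), but its 1 Mb medians ran from -0.57 at 27 Mb to 0.80 at 31 Mb, and 26 windows were called with 714 above id1 and 10 with 714 below it. From 32 to 34 Mb the 1 Mb medians against B73 were -0.99 and -1.20 in 714, against -0.17 and -0.14 in id1. The window at 33.5 Mb shows the contrast, with 5.46 CPM in 714 and 64.6 CPM in id1, against 46.9 CPM in B73. In id1 root over B73 root, a pair that shares no library with the leaf values, the stretch from 27 to 48 Mb had a median of -0.94.

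Beyond the raised 3 Mb the lines shared a pattern and differed in level. From 51 to 52 Mb the medians against B73 were -1.48 in 714 and -1.43 in id1, and id4 at -2.02 and 9d9a at -1.78 were lower still. From 52 to 63 Mb, 714 lay above id1 in 104 of 110 windows, by a median of 0.89 (0.80 to 1.02), and the 11 medians per Mb lay between 0.72 and 1.19. That offset held whether the level was below or above B73. At 54 Mb the 1 Mb medians against B73 were -1.48 in 714 and -2.41 in id1, and at 61 Mb they were 1.15 in 714 and -0.03 in id1. In this stretch 41 windows were called lower than B73 in 714 and 64 in id1, while 23 were called higher in 714 and 1 in id1. The medians against B73 there were -0.30 in 714 and -1.28 in id1. In the other leaf libraries they were -1.05 in id4, -0.10 in 714H and 0.09 in 9d9a, so id4 was low there too. At 63 Mb the offset ended. Over 63 to 65 Mb, 714 over id1 had a median of -0.05 (-0.10 to 0.11). The medians against B73 were -1.04 in 714, -1.19 in id1, -0.85 in id4, -0.28 in 714H and 0.11 in 9d9a. From 65 to 69 Mb 714 and id1 were near B73, at 0.04 in 714 and 0.11 in id1. The limits of these stretches were set after seeing the values per Mb.

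**Figure D3:**
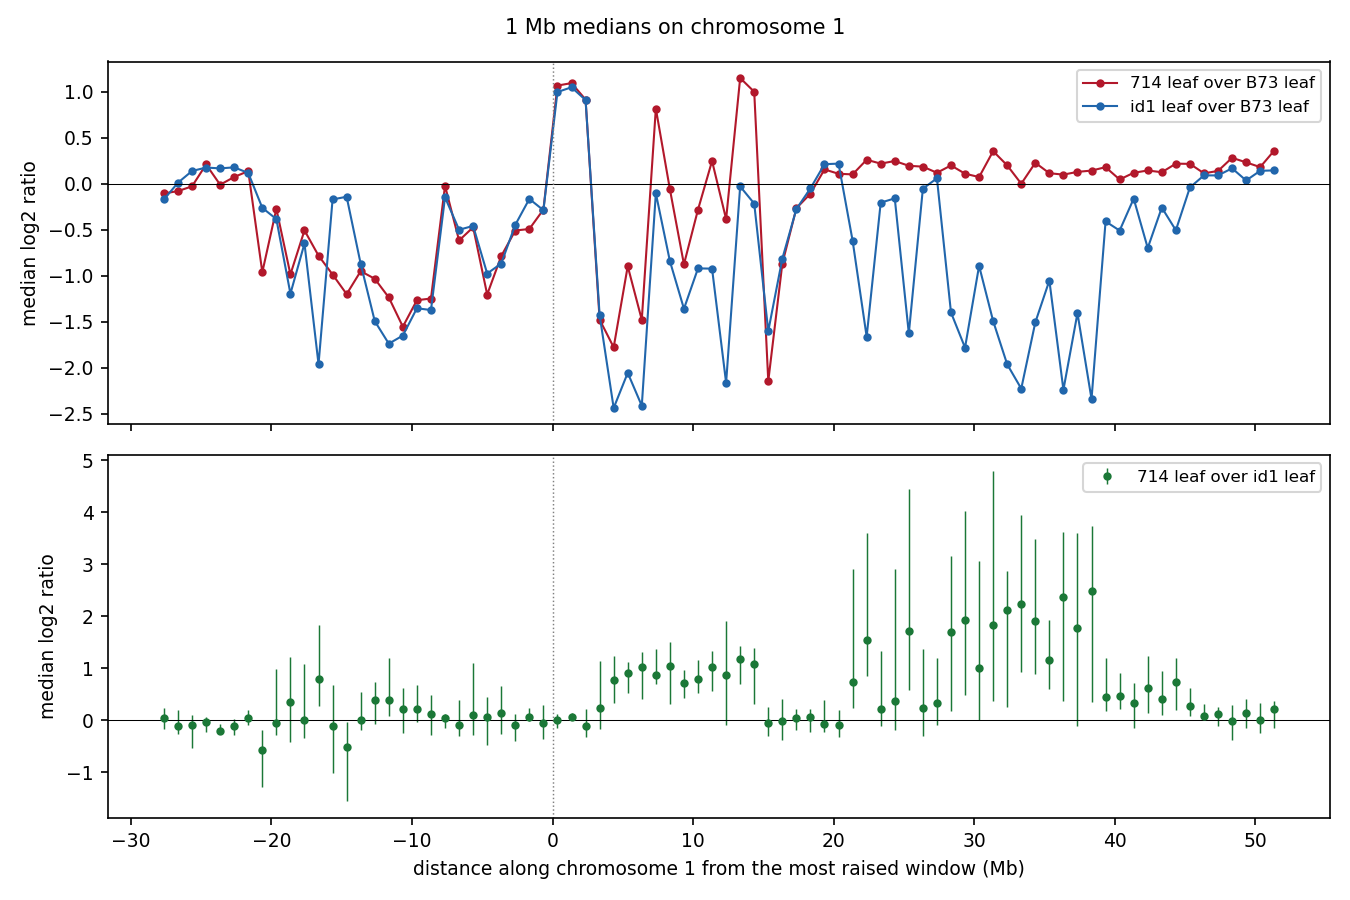
Medians per Mb on chromosome 1 (y axis, log2) by distance in Mb from the window taken as the position of p1 (x axis), for 714 and id1 leaf over B73 leaf (top) and for 714 over id1 leaf with the 95% rank interval of the median (bottom). The lines coincide from 48 to 51 Mb, stay apart by 0.72 to 1.19 from 52 to 63 Mb, meet again from 63 to 69 Mb, and from 69 to 94 Mb id1 is low in many intervals while 714 stays near B73.

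The lowest shared windows lay here as well. At 53.5 Mb there was 1 read in 714 and there were 2 in id1, against 1212 in B73. The ratio to B73 was 0.00149 (3.78e-05 to 0.00833) in 714 and 0.00302 (0.000366 to 0.0109) in id1. It was the single window with at most 3 reads in both lines and at least 50 in B73. At 63.7, 63.8, 63.9 and 63.2 Mb, 714 had 0.298, 1.39, 2.28 and 4.07 CPM and id1 had 0.603, 1.0, 2.41 and 4.42 CPM, against 35.4, 57.9, 84.2 and 106 CPM in B73. At these 5 windows the counting interval of 714 over id1 included 1. The library of 714H had 25.8 CPM at 53.5 Mb, and 17.8, 33.6, 37.0 and 65.7 CPM at the other 4, while at 53.5 Mb id4 had 2.10 CPM and 9d9a 71.8 CPM. The root libraries had 0.348 CPM in id1 and 49.4 CPM in B73 at 53.5 Mb.

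Whether a shared window stood off from B73 alone was checked with id4 and 9d9a leaf, their reads summed into a pooled baseline. A window can stand off from this pool when just id4 or just 9d9a differs, so the pool does not show a departure from each line. Of the 149 shared lower windows, id4 was also called lower than B73 in 88 (59.1%, against 1.68% of all windows) and 9d9a in 80 (53.7%, against 1.91%), and 714H in 33 (22.1%, against 3.12%). These ratios share the B73 leaf library with the choice of windows. In id1 root over B73 root 120 of the 149 (80.5%) were called lower, against 2.77% of all windows, and 31 of the 54 shared higher windows (57.4%) were called higher, against 0.838%. With the pool as the baseline 69 windows were shared lower and 39 shared higher, and 41 and 18 were shared against both B73 and the pool. Of these, 33 of the 41 and 11 of the 18 lay at 27 to 66 Mb of chromosome 1. The lower window at 150.3 Mb of chromosome 7 passed with id4 at 17.9 CPM, near the 14.1 CPM of 714, and 9d9a at 51.5 CPM.

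The remaining windows shared against both B73 and the pool of id4 and 9d9a included some far from p1. At 32.2 Mb of chromosome 6 there were 31.8 CPM in 714 and 19.8 CPM in id1, against 2.03 CPM in B73, with 22.8 CPM in 714H, 2.21 in id4 and 2.14 in 9d9a. At 137.4 Mb of chromosome 8 there were 109 CPM in 714 and 133 CPM in id1, against 49.4 CPM in B73, 47.5 in id4 and 49.0 in 9d9a. Of the 5 lower windows off chromosome 1, that at 144.5 Mb of chromosome 2 held 1.69 CPM in 714 and 1.71 CPM in id1, against 33.2 CPM in B73, 15.7 in id4 and 52.9 in 9d9a. The windows on chromosomes 8 and 2 were chosen after their values were seen. A different case was the window at 67.4 Mb of chromosome 8, where 714 had 69.8 CPM and id1 63.6 CPM, against 7.24 CPM in B73, and where id4 with 56.0 CPM and 9d9a with 60.8 CPM were high too, so that B73 was the library that stood apart.

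Part of the difference between the lines lay in 24 runs of neighbouring 2 Mb intervals whose medians of 714 over id1 were at least 0.3 in size on the same side. In 7 runs, 71.1 Mb in all (3.45% of the 2058.8 Mb covered), 714 lay above id1, and in 17 runs, 148 Mb in all (7.19%), 714 lay below id1. This balance depended on the threshold, since runs with medians of at least 0.5 in size covered 51.1 Mb with 714 above id1 and 50 Mb with 714 below. The 24 runs held 584 of the 1087 called windows (53.7%), and 503 lay outside them. In them 26.7% of windows were called, against 2.74% outside, and the median difference was 0.61 in log2 size, against 0.15 outside. Since the runs were found from the same ratios, these shares only describe them.

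In the 7 runs with 714 above id1 the line that left B73 was mostly id1. Chromosome 1 held 4 of them, at 52 to 62, 70 to 74, 76 to 94 and 220 to 230 Mb. Chromosome 2 held 1 from 224 Mb to its end at 237.1 Mb, chromosome 6 held 1 at 134 to 144 Mb, and chromosome 10 held 1 at 140 to 146 Mb. At 76 to 94 Mb of chromosome 1 the medians against B73 were 0.15 in 714 and -0.80 in id1, at 220 to 230 Mb 0.07 in 714 and -0.51 in id1, on chromosome 2 0.05 in 714 and -1.06 in id1, and on chromosome 10 -0.04 in 714 and -0.85 in id1. The chromosome 10 run summed to 12696 CPM in 714 and 8484 CPM in id1, against 13995 CPM in B73. In 3 of the runs id4 and 9d9a stood near B73 like 714, at 0.05 and -0.07 in the run at 220 to 230 Mb of chromosome 1, at 0.03 and 0.02 in that of chromosome 2 and at 0.00 and 0.02 in that of chromosome 10. In the runs at 52 to 62, 70 to 74 and 76 to 94 Mb of chromosome 1, id4 was lower than B73 too, with medians of -0.93, -0.60 and -0.27. Next to 2 of the runs the lines did not differ in their medians by more than 0.03. The 8 Mb before the chromosome 2 run had a median of 714 over id1 of 0.03 (-0.02 to 0.07) and the 10 Mb before the chromosome 10 run one of 0.01 (-0.03 to 0.06).

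Ranked by the interval bound nearest to 1, the 6 windows with the largest excess of 714 over id1 lay on chromosomes 1 and 2. At 79.7 Mb of chromosome 1, 714 had 494 CPM and id1 4.42 CPM, against 369 CPM in B73, and the ratio of 714 over id1 was 112 (83 to 154). At 73.1 Mb, 714 had 79.9 CPM and id1 0.804 CPM, against 68.6 CPM in B73, a ratio of 99.4 (50.2 to 231). At 84.0 Mb, 714 had 175 CPM and id1 4.22 CPM, against 111 CPM in B73. At 234.7 Mb of chromosome 2, 714 had 148 CPM and id1 3.01 CPM, against 131 CPM in B73. The windows at 79.9 Mb of chromosome 1 and 227.9 Mb of chromosome 2 held 324 and 224 reads in 714 and 2 reads each in id1, so their ratios of 160 (43.9 to 1327) and 111 (30.3 to 919) are poorly bounded above. In root, for which no library of 714 was analysed, id1 lay below B73 at all 6 windows. The levels were 0.0871 to 3.57 CPM in id1 root and 20.7 to 448 CPM in B73 root. In 5 windows id1 held at most 3 reads where 714 held at least 50, namely these last 2 and, named after their values were seen, the windows at 81.8 Mb on chromosome 1 and at 227.7 and 231.8 Mb on chromosome 2. The reverse was found in no window.

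**Figure D4:**
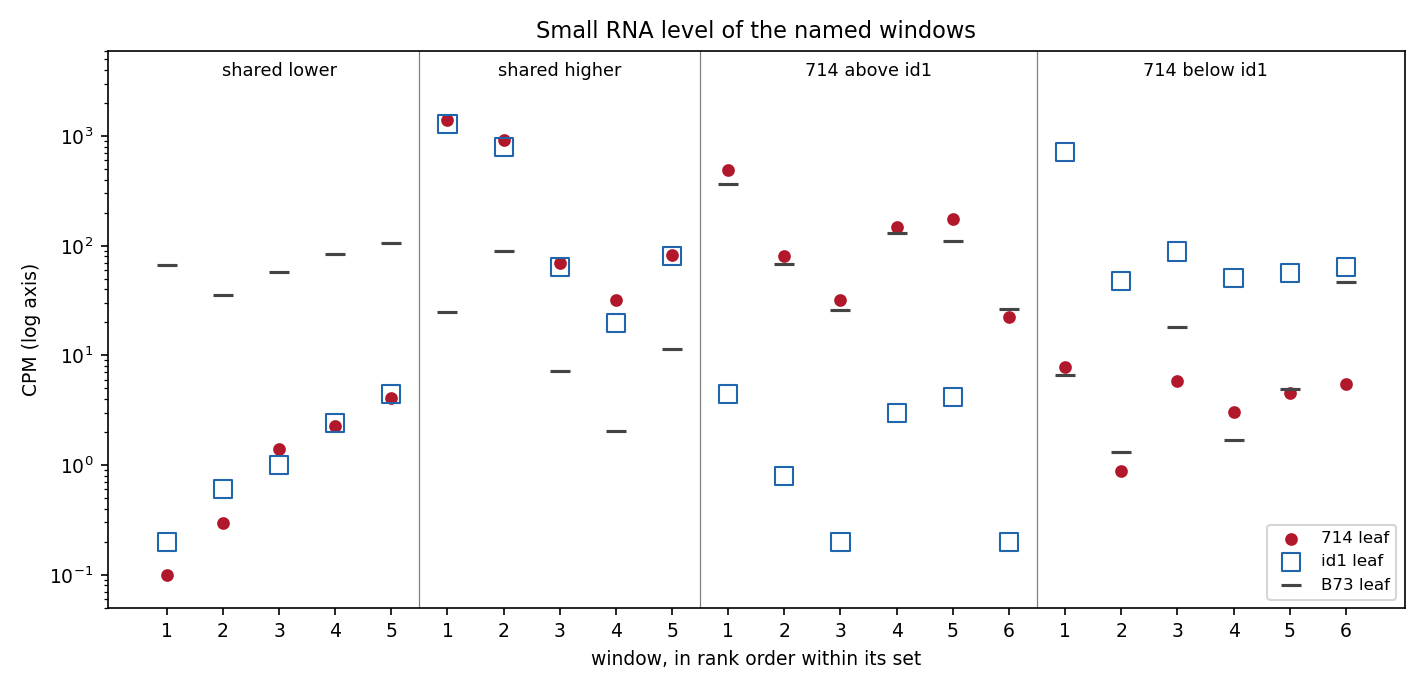
Level in CPM (log axis) in 714, id1 and B73 leaf of the 5 shared lower, 5 shared higher, 6 most parted windows with 714 above id1 and 6 with 714 below id1, in rank order (x axis). In the shared sets 714 and id1 lie on the same side, away from B73; in the set with 714 above id1, 714 sits near B73 and id1 lies far below.

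Chromosome 6 differed from the other runs. At 134 to 144 Mb, 714 stood at 0.27 and id1 at -0.16 against B73, and 714 over id1 was 0.46 (0.33 to 0.58), in 86 of 100 windows. The other libraries were at 0.28 in 714H, 0.25 in id4 and 0.28 in 9d9a, and id1 root was at -0.24 against B73 root. At 144 to 152 Mb, next to it, 714 was at 0.16 and id1 at 0.28, with a median of 714 over id1 of -0.04 (-0.15 to 0.02). On the other side, at 128 to 134 Mb, the order was that of the run, with 714 at 0.20 and id1 at -0.04. There 714 over id1 was 0.15 (0.04 to 0.32), and 714H was at 0.20, id4 at 0.22 and 9d9a at 0.21. No window of the run was called against B73 in 714, and 4 were called between the lines.

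In the 17 runs with 714 below id1, the line that left B73 was mostly 714. The run medians against B73 lay between -0.86 and -0.38 in 714 and between -0.05 and 0.10 in id1. In the run at 242 to 256 Mb of chromosome 1, id1 lay above B73, at 0.10 (0.07 to 0.18), with 714 at -0.38 (-0.50 to -0.30). Chromosome 4 carried 9 runs, at 12 to 22, 32 to 38, 42 to 46, 50 to 56, 60 to 64, 74 to 78, 82 to 88, 120 to 138 and 146 to 156 Mb. Chromosome 5 carried 5, at 12 to 24, 172 to 180, 182 to 186, 188 to 198 and 200 to 208 Mb. Chromosome 3 carried 2, at 204 to 212 and 214 to 230 Mb, and chromosome 1 carried 1, at 242 to 256 Mb. The deepest was that at 146 to 156 Mb of chromosome 4, with -0.86 in 714 and 0.00 in id1 against B73, and 714 over id1 of -0.87 (-1.12 to -0.67), 714 being lower in 88 of 100 windows. The run at 182 to 186 Mb of chromosome 5 summed to 4793 CPM in 714 and 9515 CPM in id1, against 9697 CPM in B73. Intervals in which 714 and id1 differed less lay between the runs of chromosome 4. Of 20 intervals outside runs from 10 to 90 Mb, 3 had medians of 714 over id1 of -0.3 or less. The other 17, kept for lying above that threshold, had a median of -0.08 and reached 0.05. Of 11 from 110 to 160 Mb, 1 was at -0.3 or less, and the other 10 had a median of -0.04 and reached 0.05. Over 10 to 90 Mb with the runs included, the median of 714 over id1 was -0.32 (-0.36 to -0.27), with 714 lower in 588 of 797 windows, and over 110 to 160 Mb it was -0.31 (-0.39 to -0.26).

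The runs of either direction also had different sizes, which only describes them, as they were found from these same ratios. With 714 above id1, 277 of 710 windows were called that way (39%, against 2.99% of all windows). There 129 windows were past 4-fold, and the 10th and 90th percentiles of the window values were 0.01 and 2.68 in log2. With 714 below id1, 280 of 1476 windows were called that way (19%, against 2.3% of all windows). There 17 were past 4-fold, and the percentiles were -1.16 and 0.14. On chromosome 4, 714 was called lower than B73 in 177 of 678 windows of its runs and id1 in 2. Of all windows, 2.98% were called lower in 714 and 2.61% in id1.

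Libraries that were not used to find the runs gave these values. In the 17 runs with 714 below id1, the medians against B73 were -0.86 to -0.33 in 714H, -0.07 to 0.13 in id4 and -0.07 to 0.06 in 9d9a, and -0.10 to 0.09 in id1 root over B73 root. The 714H library, labelled as carrying the 714 allele over B73, was lower than 714 in 9 of the 17 runs. At 214 to 230 Mb of chromosome 3 it was at -0.86 (-1.02 to -0.67) and 714 at -0.49 (-0.56 to -0.40), and at 12 to 24 Mb of chromosome 5 at -0.70, with 714 at -0.48. Around p1 it lay closer to B73 than 714 did, with -0.32 in 714H and -0.89 in 714 from 27 to 48 Mb, and 0.52 in 714H and 1.04 in 714 from 48 to 51 Mb. In the 7 runs with 714 above id1, id1 root over B73 root lay between -1.21 and -0.24. Window by window and with no library in common, 714H leaf was also set against id4 and 9d9a leaf, whose reads were pooled. It was called lower in 242 of the 473 windows with 714 below id1 (51.2%, against 2.95% of all windows). It was called higher in 117 of the 614 with 714 above id1 (19.1%, against 1.34%). In 134 windows 714 was called above id1 and above B73 while id1 was not called against B73. Of these, 714H was called higher than the pool of id4 and 9d9a in 71 (53%).

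**Figure D5:**
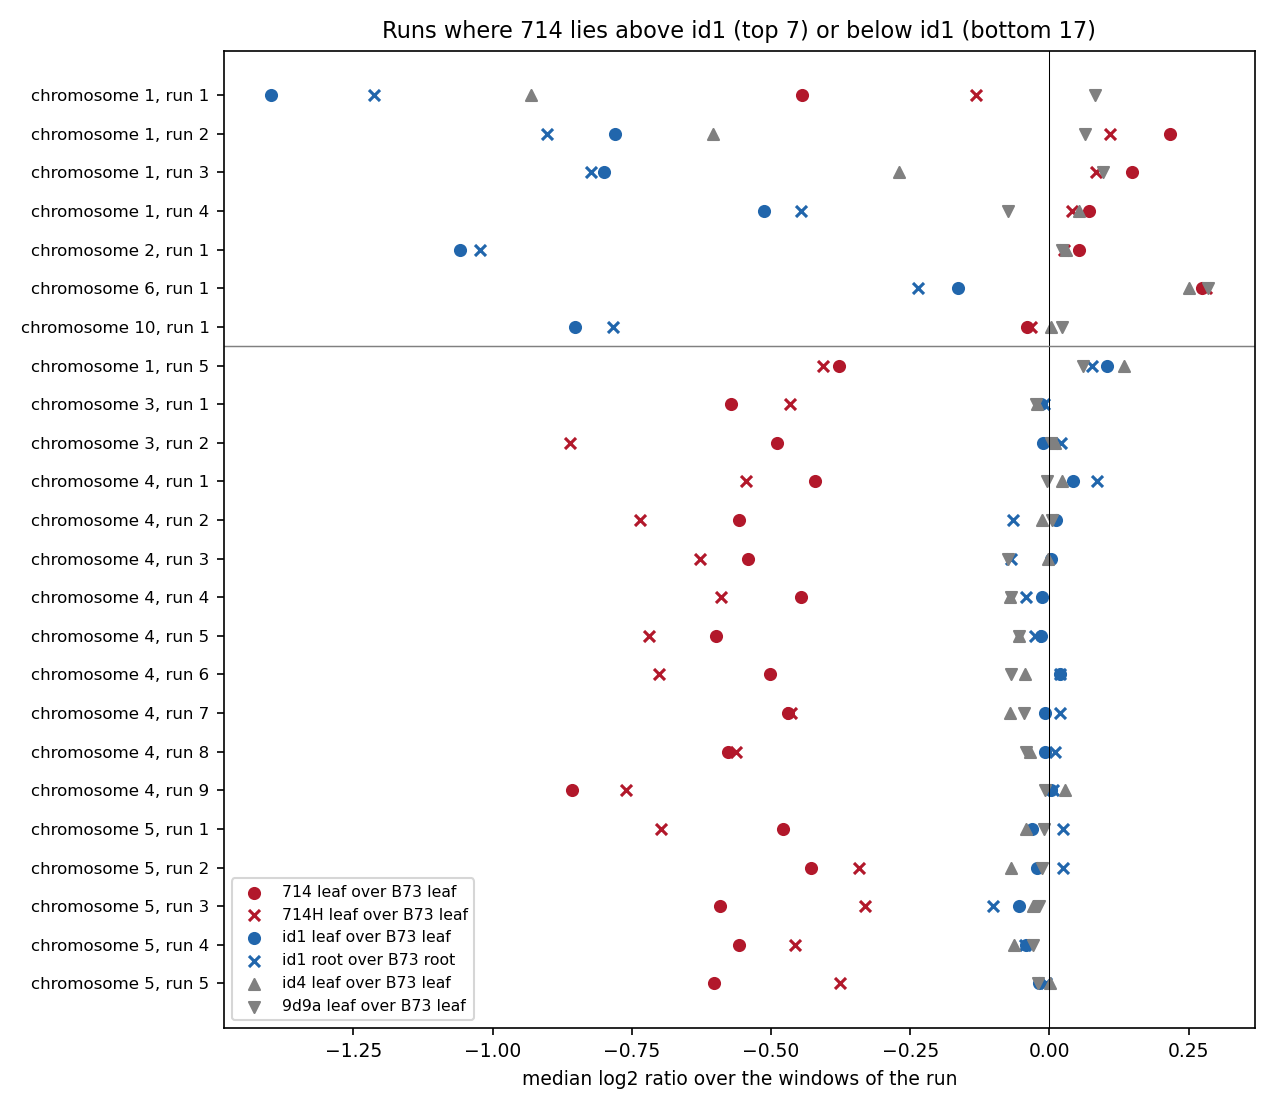
Median log2 ratio to B73 of the same tissue (x axis) in each of the 24 parted runs (rows, numbered in order along each chromosome), for 714, 714H, id1, id4 and 9d9a leaf and id1 root. In the bottom 17 rows 714 and 714H lie between -0.86 and -0.33 and the other libraries between -0.10 and 0.13; in the top 7 rows id1 leaf and root lie below the rest.

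Of the 6 windows with id1 farthest above 714, 4 were windows in which 714 stayed within 2-fold of B73 and id1 was far above it. At 233.8 Mb of chromosome 2 there were 7.84 CPM in 714 and 717 CPM in id1, against 6.58 CPM in B73, a ratio of 714 over id1 of 0.0109 (0.00865 to 0.0136), although this window lies inside the run in which id1 is low. At 176.7 Mb of chromosome 7, 714 had 0.893 CPM and id1 47.6 CPM, against 1.32 CPM in B73, and at 179.4 Mb of chromosome 1 714 had 3.08 CPM and id1 50.5 CPM, against 1.70 CPM in B73. At 75.2 Mb of chromosome 1, 714 had 4.56 CPM and id1 56.0 CPM, against 4.99 CPM in B73. In these 4 windows 714H, id4 and 9d9a had at most 14.5 CPM. That highest value was of id4 at 75.2 Mb of chromosome 1, where id4 too lay above the 4.99 CPM of B73. Root there had 11.7 CPM in id4 and 4.14 CPM in B73. The remaining 2 of the 6 were 33.5 Mb of chromosome 1, given above, where 714 was low, and 65.8 Mb of chromosome 4.

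At 65.8 Mb of chromosome 4 the lines were called on opposite sides of B73, with 5.85 CPM in 714 and 88.7 CPM in id1, against 18.4 CPM in B73. It was the single window with 714 below and id1 above. The level was 6.10 CPM in 714H, 16.4 in id4 and 17.2 in 9d9a, and 74.5 CPM in id1 root against 13.0 CPM in B73 root. Opposite sides with 714 above and id1 below were found in 4 windows. At 62.7 Mb of chromosome 1, 714 had 44.1 CPM and id1 3.72 CPM, against 19.6 CPM in B73. At 61.1 Mb of chromosome 10, 714 had 11.5 CPM and id1 0.904 CPM, against 4.88 CPM in B73. At 49.9 Mb of chromosome 9, 714 had 5.36 CPM and id1 0.904 CPM, against 2.58 CPM in B73, from 54, 9 and 47 reads, and id4 with 0.631 CPM and 9d9a with 0.595 CPM were as low as id1. The fourth, at 53.7 Mb of chromosome 7, had 6.65 CPM in 714 and 1.31 CPM in id1, against 2.69 CPM in B73, and was named after its values were seen. There 9d9a with 1.66 CPM lay near id1, and id4 with 7.57 CPM near 714. Root showed the order of id1 below B73 at 62.7 Mb of chromosome 1, with 6.27 CPM in id1 root and 13.3 CPM in B73 root, and at 61.1 Mb of chromosome 10, with 1.83 CPM in id1 root and 4.30 CPM in B73 root. On chromosome 9 the levels were 0.784 CPM in id1 root and 0.974 CPM in B73 root, and on chromosome 7 they were 1.83 CPM in id1 root and 1.70 CPM in B73 root. A further single window, at 63.5 Mb of chromosome 1, had both lines called lower than B73 with 714 the lower, at 4.96 CPM in 714 and 9.95 CPM in id1, against 32.1 CPM in B73.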

How the data were processed

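The deposited files hold counts, namely read totals per 100 kb window of 10 chromosomes, 1 library per file, per the file headers and values. The submitters' processing notes name Bowtie. No source used here gives its settings, the genome build, the read lengths or what was done with reads that match several places. Windows not listed were taken as 0. Library totals were 8472011 to 18396214 reads. TMM factors came from edgeR 4.0.16 in R 4.3.3, within each tissue, and DESeq2 1.42.0 gave alternative size factors. No count model was fitted, since each group has 1 library. The 95% interval of a ratio is the exact (Clopper-Pearson) interval of a window's share of the reads of both libraries, and that of a median comes from ranks. No molecular identifiers are named, so reads are not taken as independent molecules and intervals of ratios cover only counting error. Regional medians used log2(CPM + 1), 2 Mb intervals with at least 8 windows and runs of at least 2 intervals. Windows were named by the interval bound nearest to 1, 5 per shared set, 6 per parted set and up to 3 per opposite set. The window taken as p1, the lines and the lists were chosen with earlier results of these data known. Calls and runs were tested on simulated data. Alternatives changed the scaling, the count minimum, the fold, the baseline, the pseudocount and the interval size.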

Additional observations from a re-analysis of the deposited data

Results flagged for a closer look

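The following 4 windows were picked out because 714 and id1, each against B73 in leaf, lay on opposite sides of it, with at most 3 taken per direction. That limit left out the window at 53.7 Mb of chromosome 7, where the ratio of 714 over id1 was 5.09 (2.78 to 10.1). The difference between the lines was not tested, as each has 1 leaf library. The ratio of 714 over id1 was 11.9 (95% counting interval 8.48 to 17.1) at 62.7 Mb of chromosome 1, 12.7 (6.48 to 28.5) at 61.1 Mb of chromosome 10, 5.92 (2.90 to 13.7) at 49.9 Mb of chromosome 9 and 0.066 (0.0498 to 0.0859) at 65.8 Mb of chromosome 4. The windows on chromosomes 9 and 10 hold 9 reads each in id1, so their sizes are uncertain.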

How the results depend on the processing

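No paired analysis was possible because each group has 1 library, and for the same reason no replicate could be left out. Scaling by library totals or by DESeq2 size factors, no filter on low counts and a pseudocount of 0.1 CPM kept every count of windows and every length of runs within 1.5 times its value. The largest shift of the median window was 0.03 in log2, for 714 over B73 with library totals. All 24 runs kept a median past 0.3 under the 5 alternatives that recomputed them. A mean of at least 50 reads gave 405 windows with 714 above id1 in place of 614, as many as the 405 with 714 below. A 1.5-fold threshold gave 1099 windows with 714 above id1 and 1291 with 714 below, in place of 614 and 473, so that the larger direction changed, 127 shared higher, 1198 parted with 714 called against B73 and id1 not, and 513 with id1 called and 714 not. A 4-fold threshold gave 194, 40, 8, 30 and 152 in the same order, and 67 shared lower. With id4 and 9d9a pooled as the baseline 69 windows were shared lower, in place of 149. Runs with a median of at least 0.5 in size covered 50 Mb with 714 below id1, in place of 148 Mb. With 714 above id1 they covered 51.1 Mb, in place of 71.1 Mb, so the greater length with 714 below was not seen at that threshold. Intervals of 1 Mb gave runs of 59 Mb with 714 above and 99 Mb with 714 below, and intervals of 5 Mb gave 72.1 and 165 Mb. The cause was not tested. Of 170 comparisons for single runs and windows, 168 stayed within their intervals and none changed direction. Those for single windows changed only the scaling, which moves all their ratios by the same small factor, so they could show little. The run at 52 to 62 Mb of chromosome 1 came to 0.99 with the pseudocount of 0.1. That at 120 to 138 Mb of chromosome 4 came to -0.73 with at least 50 reads. Depth limits windows of few reads: those with a mean of 5 to 50 reads in 714 and id1 had a median counting SE of 0.46 in log2 and 8.99% called, and those with at least 500 had 0.07 and 3.4%.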

Other observations

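The window with most reads in all 3 leaf libraries was at 96.1 Mb of chromosome 6. It held 1.68% of the reads of 714, 2.61% of those of id1 and 1.69% of those of B73, which is 16558 CPM in 714 and 26294 CPM in id1, against 17029 CPM in B73. Toward the end of chromosome 1 both lines lay above B73, most clearly at 290 to 292 Mb, with 2 Mb medians of 0.49 in 714 and 0.56 in id1, and 714 over id1 of 0.03 there. At 150 to 152 Mb of chromosome 6, 714 was at -0.29 and id1 at 0.30, with 714 over id1 of -0.68, an interval that stood alone and so formed no run.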
